A study of Arabidopsis thaliana with 24 samples.

Results

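The response of germinating seeds of the Arabidopsis thaliana mutant pkl to 10 nM uniconazole was followed on 6 arrays of treated seeds against 6 arrays of seeds given solvent, which are 12 of the 24 arrays measured. The members were chosen by their labels alone. The first 2 groups were pkl seeds on medium with 10 nM uniconazole in methanol and pkl seeds on medium with 0.01% methanol, the solvent. The other 2 groups were wild-type Columbia seeds on the same 2 media, again 6 arrays each, and they are used only where the response in pkl is set against that in the wild type. Every group germinated under continuous light, and all 24 arrays hold total RNA of whole germinating seeds, which the submitters describe as 6 biological replicates per condition. Harvest age and the allele of pkl are not in the labels, which also do not say whether replicates came from separate seed batches, so p-values measure the spread between these arrays. The gene PKL itself was not analysed here, and its transcript therefore gives no check of the genotype labels.

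Uniconazole is a triazole growth retardant that blocks a cytochrome P450 early in gibberellin synthesis, and triazoles of this kind can also slow the breakdown of abscisic acid. Gibberellins are plant hormones that promote germination and cell elongation: the hormone binds GID1 receptors, which then bring DELLA repressors to the F-box protein SLY1 for destruction. PICKLE, the product of PKL, is a CHD3-type chromatin remodelling factor needed for full repression of seed and embryo genes during germination. In pkl primary roots can keep embryonic traits, and inhibitors of gibberellin synthesis are known to make this more frequent.

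Transcripts were measured on Affymetrix ATH1 arrays, where a probe set is a group of short oligonucleotides for 1 transcript or a few related ones. Signals are the deposited MAS5 intensities on a linear scale, already scaled by the submitters to a common mean on every array, so that every change is relative to the rest of the array. Log2 changes are on log2(signal + 16), uniconazole minus solvent, with their standard error. Adjusted p-values come from limma, fitted over 22746 probe sets and all 24 arrays, with Benjamini-Hochberg adjustment and a threshold of 0.05. Where 3 signals are given for a group, they are the lowest, the median and the highest of its 6 arrays. A signal of 54.9, the 95th percentile of bacterial control probe sets with no counterpart in the plant, is called the bacterial control level, and folds against a dimmer mean are lower bounds.

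Replicate arrays correlated at 0.976 to 0.982 among treated and at 0.976 to 0.983 among solvent pkl arrays. The median signal of an array was 364.6 ± 5.41 in treated pkl and 345.1 ± 8.48 in solvent pkl (SD, n = 6 each), and the groups did not overlap (exact permutation test, two-sided p = 0.00216, the smallest that 6 against 6 arrays can give, adjusted p = 0.0173 over 8 array measures). Log2 ratios of 3′ to 5′ probe sets, a gauge of RNA integrity, were 0.77 ± 0.11 in treated and 0.63 ± 0.07 in solvent pkl for ubiquitin (SD, n = 6 each, exact permutation p = 0.0303, adjusted p = 0.0808). For the older GAPDH control they were -0.06 ± 0.19 in treated and -0.31 ± 0.12 in solvent pkl (exact permutation p = 0.0152, adjusted p = 0.0606). The treated mean was also the higher for the remaining ratios (exact permutation, adjusted p from 0.0909 to 0.732). Treated against solvent means were 2.80 and 2.59 for older actin, 1.14 and 1.01 for older ubiquitin, 0.29 and 0.23 for GAPDH, and 0.31 and 0.29 for actin. The part of these differences in the results was tested only through the alternatives named with each result.

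Uniconazole changed 4999 of 22746 probe sets in pkl seeds, which is 22% of those tested. Signals rose for 2594 probe sets (11.4%) and fell for 2405 (10.6%). With every array brought to one median instead, which removes the difference in median signal, the split was 1747 higher and 3169 lower. Most changes were small, with a median size of 0.445 on the log2 scale among called probe sets, and 628 (2.76%) moved by at least 1. Of these 628, 458 rose and 170 fell, and with an offset of 64 in place of 16 the count was 406. Changes of at least 2 were 59 upward and 9 downward. The 6 treated arrays all lay above the 6 solvent arrays for 1502 called probe sets (6.6%) and all below them for 1328 (5.84%). In whole seeds fewer cells of a type and less RNA per cell cannot be told apart.

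Calls were rarer at low signal. In pkl 2.48% of the probe sets with a mean signal under 54.9 passed, where the median standard error was 0.31, against 43.1% of those over 3000, where it was 0.07. Of 4254 probe sets with both pkl means at or under the bacterial control level, 54 (1.27%) passed.

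**Figure D1:**
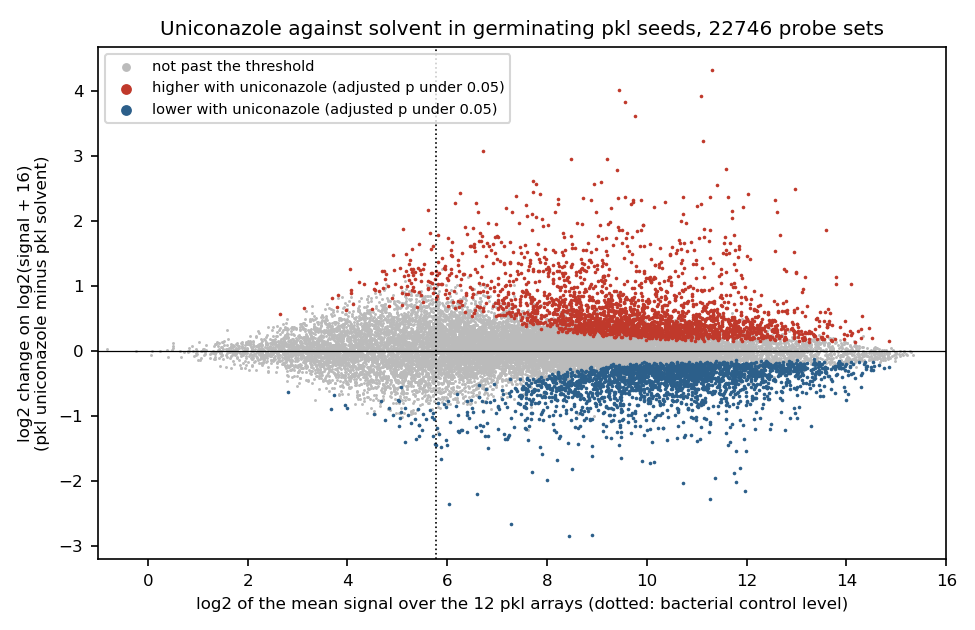
Log2 change (pkl uniconazole minus pkl solvent, on log2(signal + 16)) of 22746 probe sets against the log2 of their mean signal over the 12 pkl arrays, with the bacterial control level dotted. Red points (2594) were higher and blue points (2405) lower at an adjusted p under 0.05, and the called points reach closer to 0 at high signal.

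The annotation gave 1 gene to 13513 probe sets, which stand for 13350 genes with 1 probe set each. Of 1552 genes with a symbol, 255 rose (16.4%) and 194 fell (12.5%). Of 11798 genes known by locus code alone, 1115 rose (9.45%) and 991 fell (8.4%). The other 2426 called probe sets match several genes or are not listed in the annotation and have no name here. Among genes with a symbol whose groups did not overlap, the 12 with the largest rise and the 12 with the largest fall are described by what they do, together with the lists they belong to. Over all 13350 genes the shares were 10.3% higher and 8.88% lower. Of 989 annotated pseudogenes 8 rose (0.809%) and 7 fell (0.708%). These classes differ in signal, and calls were rarer at low signal. Both pkl means lay at or under the bacterial control level for 23.2% of locus-code genes and 13.2% of genes with a symbol. Above that level, 22.9% of locus-code genes and 33.3% of genes with a symbol were called. How far signal level accounts for the shares was not tested. The shares of all genes given beside the gene lists below were not matched to the signal of the list members either.

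Most of the listed gibberellin receptor and regulator genes rose in treated pkl seeds. Of 7 gibberellin receptors and regulators, 5 (71.4%) were higher and 0 lower (limma, and 0 lower at an unadjusted p under 0.05 as well). Among all genes with a symbol 16.4% were higher and 12.5% lower. The median change of the 7 was 0.63 against 0.02 for all probe sets. XERICO, a RING protein tied to DELLA action and to abscisic acid accumulation, had signals of 2644, 2889 and 3073 in treated pkl and 858, 879 and 969.7 in solvent pkl. Its change was 1.67 ± 0.09 (limma adjusted p = 8.77e-14), a 3.23-fold ratio of means, with no overlap of the groups, as its choice required. The receptor gene GID1B had signals of 337, 431 and 524 with uniconazole and 89.5, 121 and 196 with solvent, a change of 1.56 ± 0.17 (adjusted p = 6.19e-08). Another receptor gene, GID1A, had signals of 2176, 2311 and 2549 with uniconazole and 941, 993 and 1075 with solvent and rose by 1.20 ± 0.07 (adjusted p = 4.54e-13). Both receptor genes were higher on every treated array than on any solvent array, which the choice of GID1B required. The third receptor gene, GID1C, did not pass, with a change of 0.09 ± 0.19 (adjusted p = 0.814).

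SLY1, the F-box gene, had signals of 1722, 1815 and 1869 in treated pkl and 918, 1171 and 1358 in solvent pkl and rose by 0.63 ± 0.07 (adjusted p = 1.76e-07). SEC and SPY encode related sugar transferases, of which SPY is known to restrain gibberellin responses. SEC rose by 0.23 ± 0.07 (adjusted p = 0.0101), with overlapping groups, while SPY changed by 0.28 ± 0.11 and missed the threshold (adjusted p = 0.0788).

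Genes of seed maturation rose in large part. Of 18 genes for storage, oil bodies and maturation, 12 (66.7%) were higher and 0 lower (0 also at an unadjusted p under 0.05). Their median change was 0.88, and of all genes with a symbol 16.4% were higher and 12.5% lower. The list is broad and also holds cold- and drought-response genes, vacuolar processing enzyme genes and the linker histone gene HIS1-3. Groups did not overlap in 11 of the 12, against 1502 of the 2594 probe sets called higher over all those tested. OLEO3, an oleosin that coats oil bodies, had signals of 4215, 4748 and 4914 in treated pkl and 1119, 1359 and 1734 in solvent pkl. It rose by 1.75 ± 0.10 (adjusted p = 2.42e-13), a 3.37-fold ratio of means. PAP85, a vicilin-type storage protein gene, reached 2024, 2415 and 3089 with uniconazole and 819, 997 and 1209.9 with solvent, a change of 1.27 ± 0.14 (adjusted p = 1.2e-07). M17, a late embryogenesis gene, had signals of 275, 364 and 554 with uniconazole and 82.8, 119.9 and 135 with solvent and rose by 1.57 ± 0.16 (adjusted p = 1.71e-08). The transcription factor gene EEL, which acts on late embryo genes, had signals of 299, 375 and 412 with uniconazole and 112, 129.8 and 172 with solvent and rose by 1.36 ± 0.14 (adjusted p = 2.94e-08). In these 4 genes no treated array lay as low as a solvent array, which the choice of OLEO3 and M17 required.

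Late embryogenesis abundant (LEA) proteins and dehydrins protect cells during drying. Uniconazole raised 5 (71.4%) of the 7 genes so annotated and lowered 1, against 10.3% higher and 8.88% lower over all 13350 genes. Some of the 7 are also in the maturation list. The 7 do not hold LTI30 and COR47, described below with the maturation list, so they are not all such genes measured. LEA, so named in the annotation, had signals of 4011, 4244 and 5559 in treated pkl and 1218, 1590.2 and 1951 in solvent pkl, a change of 1.50 ± 0.12 (adjusted p = 2.05e-10). LEA18 had signals of 16454, 19092 and 21327 with uniconazole and 8522, 9233 and 10341 with solvent and rose by 1.02 ± 0.09 (adjusted p = 2.18e-09). LEA4-5 rose by 1.14 ± 0.11 (adjusted p = 2e-08) to signals of 11013, 12220.4 and 16735, against 4769, 5771 and 6901 with solvent. All 3 had treated arrays wholly above the solvent arrays. AT2G46140 went the other way, with 2776, 3545 and 4291 in treated pkl and 4288, 5249.9 and 5745 in solvent pkl, and fell by 0.55 ± 0.09 (adjusted p = 2.13e-05). Its groups overlapped by the highest treated and the lowest solvent array.

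Some seed and stress genes did not pass. The cold- and drought-response genes COR15A, COR15B and COR47 did not pass, with changes of 0.68, -0.24 and -0.27, and both pkl means of COR15A lay under the bacterial control level. In the same list LTI30, a cold- and drought-response dehydrin gene, rose by 0.73 ± 0.17 (adjusted p = 0.00173), with signals of 1009, 1328 and 1541 in treated pkl and 575, 792 and 906 in solvent pkl that did not overlap. Some vacuolar processing enzymes mature storage proteins. Of their genes, GAMMA-VPE rose by 0.62 ± 0.12 (adjusted p = 0.000195) and BETA-VPE by 0.38 ± 0.08 (adjusted p = 0.00057). DELTA-VPE changed by 0.08 ± 0.17 and ALPHA-VPE by 0.54 ± 0.37, and neither passed. HIS1-3, a linker histone gene known for its response to drying, had signals of 449.7, 538 and 726 in treated pkl and 154, 176 and 205 in solvent pkl and rose by 1.59 ± 0.23 (adjusted p = 5.18e-06). Among the genes that turn stored oil into sugar, ICL (isocitrate lyase) had signals of 32618, 36094 and 39515 with uniconazole and 34389, 35506 and 41289 with solvent and did not pass (adjusted p = 0.984). SDP1, an oil-body lipase gene, fell by 0.33 ± 0.08 (adjusted p = 0.00184).

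An anthocyanin gene had the largest rise of the genes with a symbol. DFR, the dihydroflavonol reductase that commits flavonoids to anthocyanin, had signals of 958, 1057 and 1190 in treated pkl and 82.3, 131 and 156 in solvent pkl. Its change was 2.96 ± 0.26 (adjusted p = 1.64e-09), an 8.46-fold ratio of means. UF3GT, an anthocyanin glycosyltransferase gene, had signals of 1006, 1144 and 1399 with uniconazole and 116, 217 and 288 with solvent and rose by 2.36 ± 0.17 (adjusted p = 6.51e-11). AT5MAT, which encodes an anthocyanin malonyltransferase, had signals of 316, 346 and 401 with uniconazole and 81.9, 100 and 121 with solvent, a change of 1.65 ± 0.20 (adjusted p = 5.16e-07). For these 3 genes every treated array exceeded every solvent array, as their choice required. The list of 7 anthocyanin and flavonoid genes does not hold AT5MAT. Of the 7, 3 (42.9%) rose and 0 fell (4 higher and 0 lower at an unadjusted p under 0.05). Their median change was 0.57, and of all genes with a symbol 16.4% rose and 12.5% fell. CHIL, a chalcone isomerase-like gene, changed by 0.14 ± 0.08 and did not pass (adjusted p = 0.25). The third gene that rose was UGT78D2, a flavonoid glucosyltransferase gene, by 0.57 ± 0.10 (adjusted p = 9.97e-05).

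Cell wall loosening genes changed in both directions, and falls outnumbered rises. Expansins loosen the wall as cells grow, and xyloglucan endotransglucosylase/hydrolases (XTHs) cut and rejoin its xyloglucan. Of 27 such genes, 10 (37.0%) fell and 4 (14.8%) rose, while 13 did not pass, and the median change was -0.22. Of all genes with a symbol 12.5% fell and 16.4% rose, so the share of rises in the list was near the general one. EXLA2, an expansin-like gene, had signals of 13.3, 25.1 and 92.6 in treated pkl and 217, 283 and 335 in solvent pkl. It fell by 2.66 ± 0.32 (adjusted p = 3.19e-07), and because its treated mean lay under the bacterial control level the fall is given as at least 5.01-fold. EXPA8, an expansin gene, had signals of 1424, 1794 and 2179 with uniconazole and 3945, 4144 and 4924 with solvent and fell by 1.26 ± 0.12 (adjusted p = 9.5e-09).

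XTH19 had signals of 1435, 2082 and 2752 in treated pkl and 5543, 5891 and 6477 in solvent pkl, a change of -1.54 ± 0.12 (adjusted p = 2.34e-10). Its chromosomal neighbour XTH18 had signals of 278, 372 and 469.5 with uniconazole and 799, 1003 and 1277 with solvent and fell by 1.44 ± 0.17 (adjusted p = 2.34e-07). XTH16 fell by 1.04 ± 0.07 (adjusted p = 2.42e-11) to signals of 2358, 2971 and 3393, against 5662, 6119.9 and 6476 with solvent. XTH33 fell by 1.14 ± 0.17 (adjusted p = 8e-06), with 269.5, 473 and 622 in treated pkl and 786, 898 and 1227 in solvent pkl. For the 4 XTH genes every treated array lay below every solvent array, as their choice required. XTH20 also fell, by 0.58 ± 0.19 (adjusted p = 0.0262), but its groups overlapped. They were at 48.9, 83.95 and 122.6 in treated pkl and 83.1, 137.8 and 171.9 in solvent pkl. The probe sets are annotated to single genes, but XTH18 and XTH19 are close relatives, and cross-hybridization between them was not tested.

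The 4 wall loosening genes that rose were EXPA15, EXPA18, XTH26 and XTH32. EXPA15 had signals of 2447, 2645 and 3234 in treated pkl and 1469.7, 1640.3 and 1809 in solvent pkl, a change of 0.74 ± 0.10 (adjusted p = 1.14e-06). XTH32 had signals of 393, 507 and 638 with uniconazole and 224, 252 and 275 with solvent, a change of 0.98 ± 0.14 (adjusted p = 4.51e-06). EXPA18, an expansin known for root hairs, rose by 1.34 ± 0.28 (adjusted p = 0.000622), while EXPA7, the other root hair expansin, changed by 0.74 ± 0.29 and missed the threshold (adjusted p = 0.0698). XTH26 was dim, at 14.1, 56.8 and 121 with uniconazole and 8.5, 11.7 and 12.7 with solvent, with every solvent array under the bacterial control level, and rose by 1.34 ± 0.44 (adjusted p = 0.0265). With an offset of 64 in place of 16, 1 of the 2 XTH genes that rose still passed.

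EXO (EXORDIUM), a growth gene known for its response to brassinosteroids, had signals of 542, 589 and 659 in treated pkl and 1278, 1673 and 1756 in solvent pkl and fell by 1.40 ± 0.08 (adjusted p = 1.37e-12). Tubulins, the subunits of microtubules, fell in smaller steps. Of EXO and 7 tubulin genes, 6 (75%) fell and 0 rose, also at an unadjusted p under 0.05, and the median change was -0.32. For comparison, 12.5% of all genes with a symbol fell and 16.4% rose. Calls were more frequent at high signal: of 2353 probe sets with a mean signal over 3000, 632 fell and 383 rose. TUB7 fell most among the tubulins, with a change of -0.68 ± 0.08 (adjusted p = 6.45e-07), with 1479, 1554 and 1879 in treated pkl and 2104, 2637 and 3229 in solvent pkl. TUB6 fell by only 0.19 ± 0.06 (adjusted p = 0.0224), and TUA1 and TUB9, at -0.06 and -0.07, did not pass. Of 4 listed genes for enzymes that modify pectin, the gel of the wall, 1 rose, 1 fell and 2 did not pass. PME61 changed by -0.04 (adjusted p = 0.938) and AT4G02300 by -0.15 (adjusted p = 0.869). Both pkl means of AT4G02300 lay under the bacterial control level. The pectin methylesterase gene PMEPCRF had signals of 148, 209 and 295 with uniconazole and 9.9, 48.5 and 80.2 with solvent, with a rise of 1.95 ± 0.29 (adjusted p = 1.22e-05) or at least 3.8-fold over the bacterial control level. ATPMEPCRB, of the same enzyme family, fell by 0.90 ± 0.11 (adjusted p = 9.87e-07), with 751, 946 and 1138 in treated pkl and 1528, 1727 and 2111 in solvent pkl.

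**Figure D2:**
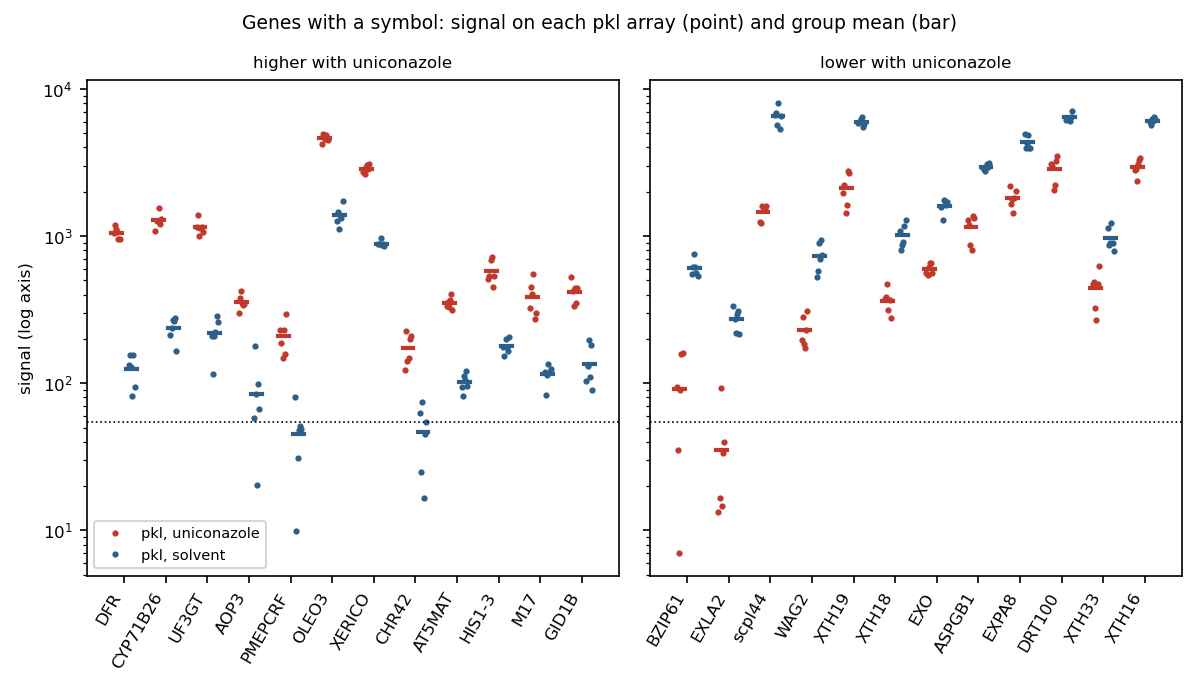
Signal (log axis) on each of the 6 treated (red, left) and 6 solvent (blue, right) pkl arrays for the 12 genes with a symbol that rose most and the 12 that fell most, with bars at the group means and the bacterial control level dotted. In all 24 genes the red and blue points do not overlap, as the choice of these genes required, and the treated points of BZIP61 and EXLA2 spread most widely.

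Among the remaining falls, BZIP61, a basic leucine zipper transcription factor gene, had the largest, -2.84 ± 0.32 (adjusted p = 1.31e-07). Its signals were 7, 91.8 and 161 in treated pkl and 537, 590.05 and 758 in solvent pkl, so the treated arrays ranged from under the bacterial control level to well above it. The serine carboxypeptidase-like gene scpl44 had signals of 1232, 1523 and 1598 with uniconazole and 5358, 6632 and 8080.5 with solvent and fell by 2.15 ± 0.10 (adjusted p = 4.06e-15), a 4.51-fold ratio of means. WAG2, a protein kinase gene that acts on auxin transport and root growth, fell by 1.61 ± 0.16 (adjusted p = 1.29e-08), with 173, 213 and 309.7 in treated pkl and 530, 720 and 938 in solvent pkl. ASPGB1 encodes an asparaginase, which frees ammonium from asparagine. It had signals of 807, 1238 and 1378 with uniconazole and 2784, 2939 and 3149 with solvent and fell by 1.39 ± 0.10 (adjusted p = 5.6e-11). DRT100, which encodes a leucine-rich repeat protein, fell by 1.19 ± 0.09 (adjusted p = 1.3e-10), with 2049, 3042 and 3489 in treated pkl and 6089, 6338 and 7062 in solvent pkl.

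Among the remaining rises, the cytochrome P450 gene CYP71B26 had signals of 1082, 1261 and 1560.1 in treated pkl and 167, 250.4 and 276 in solvent pkl, a change of 2.36 ± 0.16 (adjusted p = 9.54e-12). Of 24 cytochrome P450 genes 2 rose, 0 fell and 22 did not pass, against 4 higher and 1 lower at an unadjusted p under 0.05. The share of 8.33% higher stands beside 16.4% higher and 12.5% lower among all genes with a symbol. AOP3, a dioxygenase gene of glucosinolate side chains, had signals of 300.3, 348 and 423 with uniconazole and 20.4, 75.2 and 179 with solvent and rose by 2.06 ± 0.32 (adjusted p = 1.61e-05). CHR42, a chromatin remodelling gene of the SNF2 family, had signals of 122, 173 and 227 with uniconazole and 16.7, 50.1 and 74.6 with solvent. It rose by 1.67 ± 0.33 (adjusted p = 0.000408), or at least 3.18-fold, since the solvent mean lay under the bacterial control level.

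Many photosynthesis genes of the nucleus rose. Of 15 such genes 10 (66.7%) were higher and 0 lower (0 also at an unadjusted p under 0.05), with a median change of 0.48. The shares among all genes with a symbol were 16.4% higher and 12.5% lower. Groups did not overlap in 4 of the 10, against 1502 of the 2594 probe sets called higher over all those tested. LHCB4.2, an antenna protein of photosystem II, had signals of 328, 539 and 966 in treated pkl and 133, 235 and 280.2 in solvent pkl and rose by 1.22 ± 0.20 (adjusted p = 3.19e-05). Its relatives LHCB4.1 and LHCB4.3 rose by 0.71 ± 0.13 (adjusted p = 0.000172) and 0.74 ± 0.12 (adjusted p = 4.38e-05). PSAE-1, a subunit of photosystem I, had overlapping groups, at 1530.1, 2146 and 3960 with uniconazole and 713, 1039 and 1643 with solvent, and rose by 1.05 ± 0.17 (adjusted p = 4.06e-05). PORB, which reduces protochlorophyllide in light, rose by 0.75 ± 0.15 (adjusted p = 0.000435). PRK, the phosphoribulokinase of the Calvin cycle, rose by 0.62 ± 0.10 (adjusted p = 3.92e-05), with 2269.6, 2479 and 3357 in treated pkl and 1464, 1766 and 1901 in solvent pkl. CHLM and CHLI2, of chlorophyll synthesis, did not pass, with changes of 0.01 ± 0.08 (adjusted p = 0.966) and -0.03 ± 0.07 (adjusted p = 0.855).

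All 69 chloroplast-encoded genes measured had positive changes, between 0.09 and 0.66 with a median of 0.35, and 22 (31.9%) passed. In comparison, 16.4% of all genes with a symbol were higher and 12.5% lower. At an unadjusted p under 0.05, 34 of the 69 were higher and 0 lower. The largest change was that of rps4, a ribosomal protein gene, a rise of 0.66 ± 0.10 (adjusted p = 1.67e-05). Its signals were 8464, 10407 and 11959 in treated pkl and 4846, 6494 and 7616 in solvent pkl. The gene rbcL, for the large subunit of Rubisco, rose by 0.58 ± 0.11 (adjusted p = 0.000232), with 1223, 1535 and 1951 in treated pkl and 858, 1003 and 1302 in solvent pkl. Only rps4 and petA, a cytochrome f gene that rose by 0.40 ± 0.08 (adjusted p = 0.000272), had groups that did not overlap. Over all probe sets tested, 1502 of the 2594 called higher had no overlap. The count of 22 depended on the processing. It was 14 with arrays brought to one median, 14 without a variance trend and 13 with the older GAPDH 3′ to 5′ ratio as a covariate. With the pkl arrays alone in the fit it was 35. Of 16 mitochondrion-encoded genes 2 (12.5%) rose and 0 fell (limma, 3 higher and 0 lower at an unadjusted p under 0.05). That share is not above the 16.4% that rose among all genes with a symbol, and the median change was 0.10. The 2 were nad4, by 0.52 ± 0.19 (adjusted p = 0.0492), and ccb382, by 0.41 ± 0.10 (adjusted p = 0.00464).

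**Figure D3:**
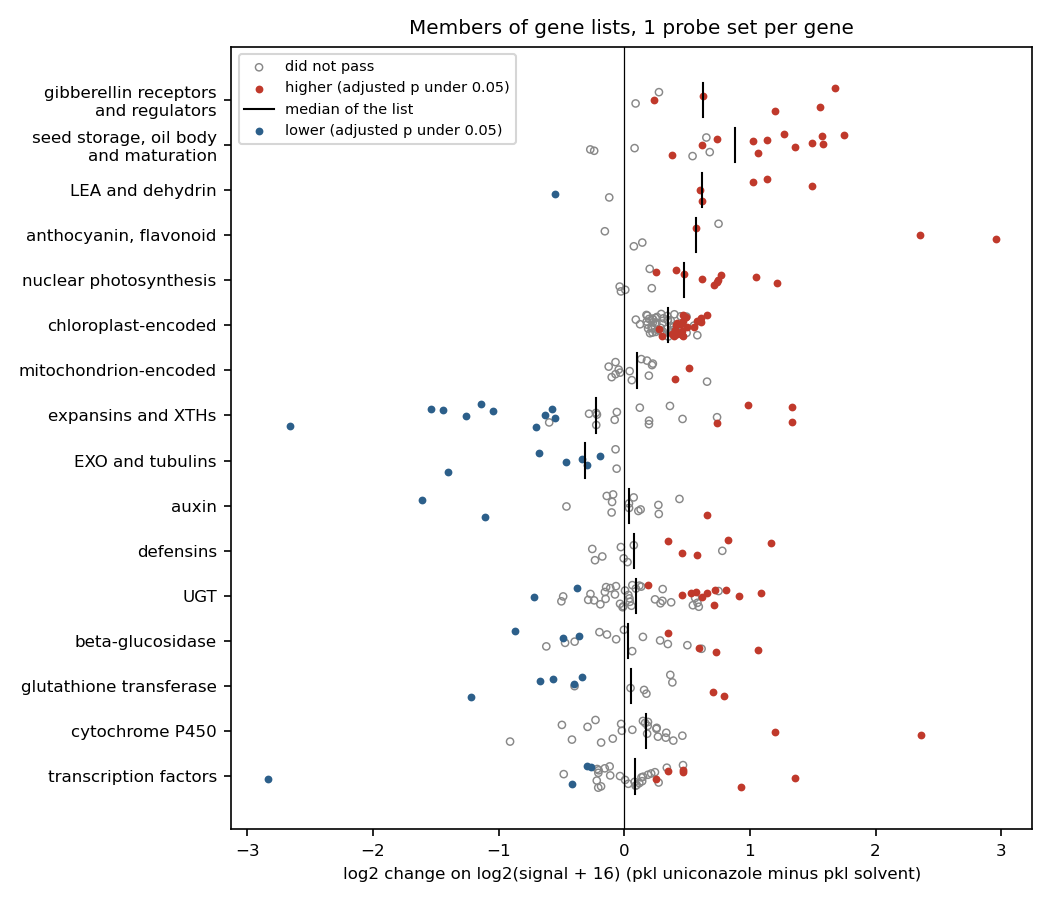
Log2 change (pkl uniconazole minus pkl solvent) of each member of 16 gene lists, 1 probe set per gene, filled where the adjusted p was under 0.05 (red higher, blue lower) and open where it was not, with a bar at each list's median. The seed maturation list and the gibberellin receptors and regulators lie mostly to the right, EXO and the tubulins to the left, and expansins and XTHs on both sides.

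Genes known by locus code alone were 11798 of the 13350 genes measured and 2106 of the 2555 called. Of them, 194 rose and 77 fell by at least 1 on the log2 scale. The 12 largest rises and 12 largest falls without overlap were all annotated as protein-coding, and the tables used here give them no name, so only their values are described.

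AT4G14090 had the largest rise among probe sets with 1 annotated gene. Its signals were 1464, 1543 and 1844 in treated pkl and 79, 126 and 164 in solvent pkl, a change of 3.61 ± 0.20 (adjusted p = 3.4e-13) and a 13.3-fold ratio of means. AT4G36700 had signals of 4512, 5426 and 5988 with uniconazole and 607, 682 and 1048 with solvent and rose by 2.80 ± 0.14 (adjusted p = 5.44e-14). AT2G28490 had signals of 4277, 4857 and 7051 with uniconazole and 938, 959.8 and 1234 with solvent and rose by 2.36 ± 0.12 (adjusted p = 5.44e-14). AT5G01300 had signals of 2218, 2729.6 and 3427 with uniconazole and 442, 528 and 648 with solvent, a change of 2.37 ± 0.13 (adjusted p = 3.4e-13). In these 4 genes the lowest treated array was over 2 times as bright as the highest solvent array.

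In 5 of the other rises the change ranged from 2.30 to 2.78. AT5G36160 had signals of 996, 1207 and 1309 in treated pkl and 117, 152 and 218 in solvent pkl and rose by 2.78 ± 0.26 (adjusted p = 5.72e-09). AT5G47610 had little spread, at 577, 716 and 831 with uniconazole and 112, 124 and 151 with solvent, and with a change of 2.35 ± 0.10 its adjusted p of 1.47e-15 was the smallest of the 12. AT4G31830 reached 559.7, 773 and 1191 with uniconazole and 69.6, 134 and 197 with solvent, a rise of 2.57 ± 0.26 (adjusted p = 2.06e-08). AT3G53040 varied widely among treated arrays, at 1107, 1749 and 4456 in treated pkl and 321, 379 and 551 in solvent pkl, and rose by 2.30 ± 0.23 (adjusted p = 1.81e-08). AT5G45690 rose by 2.32 ± 0.20 (adjusted p = 2.02e-09), with 665, 763 and 962 in treated pkl and 70.4, 153 and 204 in solvent pkl. For AT5G45690 the lowest treated array was more than 3 times as bright as the highest solvent array.

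In the other 3 rises at least 1 solvent array lay under the bacterial control level of 54.9. AT4G04630 had signals of 272, 416 and 546 in treated pkl and 16.1, 69.5 and 89.3 in solvent pkl and rose by 2.40 ± 0.33 (adjusted p = 3.22e-06). AT5G43770 had signals of 400, 476 and 609.7 with uniconazole and 21.3, 97.6 and 140.1 with solvent and rose by 2.34 ± 0.30 (adjusted p = 9.61e-07). AT1G21520 had signals of 205, 281 and 371 with uniconazole, while the solvent arrays, at 31.7, 42.8 and 51.6, all lay under that level. The rise of AT1G21520, 2.38 ± 0.24 (adjusted p = 1.71e-08), is thus at least 5.31-fold.

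Among the falls, AT2G43860 had the largest change, -2.36 ± 0.25 (adjusted p = 6.35e-08). Its signals were 5, 9.75 and 17.6 in treated pkl, all under the bacterial control level, and 69.7, 118 and 169 in solvent pkl, so that the fall is at least 2.2-fold. AT5G62340 had signals of 488, 675 and 808 with uniconazole and 2479.6, 2718 and 2989 with solvent and fell by 2.02 ± 0.10 (adjusted p = 2.01e-14). AT5G62330, next to it among the measured genes of the chromosome, had signals of 39.5, 78.8 and 159.9 with uniconazole and 216, 345 and 404 with solvent and fell by 1.86 ± 0.30 (adjusted p = 2.84e-05). AT5G62280, named by the same rule, fell by 1.59 ± 0.27 (adjusted p = 6.37e-05), with 32.5, 130.1 and 150.2 in treated pkl and 250.2, 363 and 459 in solvent pkl. Both of the last 2 genes had treated arrays on either side of the bacterial control level.

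Other falls left treated signals well above the bacterial control level. AT3G48460 had signals of 1413, 1881 and 2186 in treated pkl and 4870.3, 5254 and 5531 in solvent pkl and fell by 1.54 ± 0.09 (adjusted p = 7.42e-13). AT5G47330 had signals of 372, 522 and 739.8 with uniconazole and 1356, 1749.8 and 1992 with solvent, a change of -1.70 ± 0.13 (adjusted p = 9.8e-11). AT1G29080 had signals of 253, 437 and 637 with uniconazole and 1138, 1354 and 1946 with solvent and fell by 1.68 ± 0.19 (adjusted p = 2.07e-07). In each of these 3 the brightest treated array was still well below the dimmest solvent array.

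The other 5 falls lay between -1.67 and -1.41. AT1G61840 had signals of 28, 147 and 236 in treated pkl and 370.5, 434 and 532 in solvent pkl and fell by 1.67 ± 0.28 (adjusted p = 4.05e-05). AT3G59850 was dim, at 14.2, 59.1 and 101 with uniconazole and 122, 155 and 219 with solvent, and fell by 1.50 ± 0.30 (adjusted p = 0.000421). For AT4G21865 the change was -1.48 ± 0.22 (adjusted p = 7.52e-06), with 74.8, 114 and 193 in treated pkl and 244, 359 and 446 in solvent pkl. The treated arrays of AT1G61840 and AT3G59850 spread most widely among these genes. AT1G48330 fell by 1.45 ± 0.15 (adjusted p = 4.05e-08), with 199, 242 and 316 in treated pkl and 585, 676 and 906 in solvent pkl. AT5G46940 fell by 1.41 ± 0.15 (adjusted p = 8.55e-08), with 161, 169 and 211 in treated pkl and 345, 517 and 644 in solvent pkl.

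**Figure D4:**
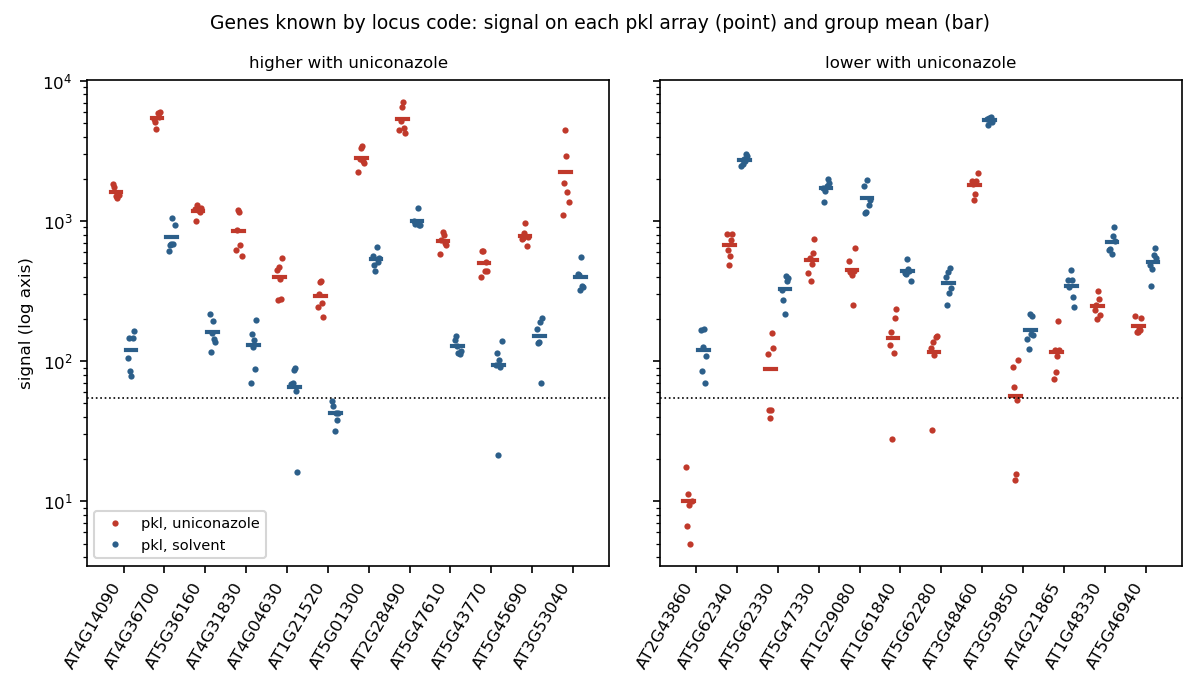
Signal (log axis) on each of the 6 treated (red, left) and 6 solvent (blue, right) pkl arrays for the 12 locus-code genes that rose most and the 12 that fell most, with bars at the group means and the bacterial control level dotted. The solvent points of AT1G21520 and the treated points of AT2G43860 lie wholly under the dotted level.

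Most of the response was shared with the wild type, which was measured on other arrays. In wild-type seeds uniconazole raised 2064 probe sets (9.07%) and lowered 1691 (7.43%), and 3755 (16.5%) were called in either direction. Of those raised in pkl, 1503 were also raised in the wild type, which is 57.9% of the pkl calls and 72.8% of the wild-type calls. Of those lowered in pkl, 1307 were also lowered in the wild type, 54.3% of the pkl calls and 77.3% of the wild-type calls. Over all probe sets the changes in pkl and wild type had a Pearson correlation of 0.63 and a Spearman correlation of 0.53, and over the 18796 with a mean above the bacterial control level these were 0.71 and 0.62. These are correlations across probe sets, which are not independent of each other and share their sequence between genotypes. Medians depended on which genotype's calls chose the probe sets. Those raised in pkl had a median change of 0.48 in pkl and 0.34 in the wild type, and those lowered in pkl had medians of -0.41 in pkl and -0.27 in the wild type. Probe sets raised in the wild type had a median change of 0.42 in pkl and 0.44 in the wild type, and those lowered there had medians of -0.40 in pkl and -0.39 in the wild type.

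Named genes were mostly called in both genotypes. Of the 24 genes with a symbol, 23 passed in the same direction in wild-type seeds, and so did 21 of the 24 known by locus code. The exception with a symbol was AOP3, at 130.2, 169.5 and 232 in treated and 29.3, 94.3 and 202 in solvent wild type, with a change of 0.89 ± 0.32 (adjusted p = 0.0537); its difference between genotypes, 1.17 ± 0.45, did not pass either (adjusted p = 0.482). The change was larger in pkl for 21 of the 24 genes with a symbol and for 23 of the 24 known by locus code, all of which had been chosen by the size of their change in pkl. BZIP61 changed by -2.84 in pkl and -1.69 in the wild type, PMEPCRF by 1.95 in pkl and 0.93 in the wild type, and HIS1-3 by 1.59 in pkl and 0.89 in the wild type, but these differences did not pass (adjusted p = 0.502, 0.525 and 0.605). The 3 exceptions with a symbol were XERICO, GID1B and EXO. XERICO changed by 1.67 in pkl and 1.80 in the wild type. GID1B changed by 1.56 in pkl and 1.62 in the wild type, and EXO by -1.40 in pkl and -1.43 in the wild type. For XTH18 the changes were -1.44 in pkl and -1.40 in the wild type. In none of these last 4 genes did the difference pass (adjusted p between 0.88 and 0.986).

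The difference between the genotypes was tested directly as an interaction, the change in pkl minus the change in the wild type. It passed for 32 probe sets (0.141%), 16 higher and 16 lower (0.0703% each), while 1748 had an unadjusted p under 0.05. Of the 32, 10 rose more in pkl, 8 fell more in pkl, 6 rose less in pkl, and 8 had changes of opposite sign. The test was blunter than that of the response itself, with a median standard error of 0.20 for the difference and 0.14 for the change in pkl. The count also rested on single arrays: it was 15 without the solvent pkl array of replicate 4, 17 without that of replicate 3, 19 without that of replicate 2, and 18 and 19 without the treated pkl arrays of replicates 2 and 4. Without the solvent pkl array of replicate 5 it was 21.

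AT1G21520 had the largest difference among probe sets with 1 annotated gene, 3.09 ± 0.34 (adjusted p = 1.24e-05). It rose in pkl, as described, but had signals of 7.8, 26.1 and 44.2 in treated and 27, 48.8 and 72.2 in solvent wild type, a change of -0.71 ± 0.24 (adjusted p = 0.0383). Both wild-type means lay under the bacterial control level, so its wild-type change has no fold. AT3G18570 rose in both genotypes, to 1127, 1369 and 1798 against 211, 257 and 401 with solvent in pkl, and to 418, 458 and 728 against 198, 222 and 269.8 with solvent in the wild type. Its change was 2.28 ± 0.15 in pkl and 1.08 ± 0.15 in the wild type, a difference of 1.20 ± 0.21 (adjusted p = 0.0109). The treated pkl arrays of AT3G18570 lay above all arrays of the other 3 groups.

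XTH19 fell further in pkl than in the wild type. Wild-type signals were 3489.6, 3798 and 4528 with uniconazole and 4488, 5972 and 6388 with solvent, and the change there was -0.54 ± 0.12 (adjusted p = 0.0021). The difference was -0.99 ± 0.17 (adjusted p = 0.00902), and it did not extend to its neighbour XTH18 as a called difference (-0.04 ± 0.24, adjusted p = 0.986). The carboxypeptidase-like gene scpl44 had signals of 4824, 6487 and 6927 in treated and 12543, 14722 and 16858 in solvent wild type, all above those of pkl on the same medium. Its change of -1.25 ± 0.10 there differed from that in pkl by -0.91 ± 0.14 (adjusted p = 0.00211). OLEO3 and LEA, the maturation genes described above, rose more in pkl, with differences of 0.86 (adjusted p = 0.00371) and 0.87 (adjusted p = 0.0223). Neither of these differences was run under the alternatives. OLEO3 had signals of 3439, 3666 and 4505 in treated and 1598, 2052 and 2577 in solvent wild type, against which its pkl median was lower on solvent and higher on uniconazole. No difference passed for the other 16 of the 18 genes in the maturation list, which does not show that they responded alike.

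The remaining named differences lost their call under at least 1 alternative. AT1G62530 had signals of 87.4, 126 and 185 in treated and 15.8, 65.3 and 115 in solvent pkl, which overlapped, and of 4.7, 12.3 and 48.4 in treated and 53.3, 55.8 and 75.6 in solvent wild type. It rose in pkl (0.90 ± 0.31, adjusted p = 0.0334) and fell in the wild type (-1.17 ± 0.31, adjusted p = 0.00797), a difference of 2.07 ± 0.43 (adjusted p = 0.044). AT5G53990 had signals of 22.7, 79.7 and 93.8 in treated and 4.4, 11.1 and 17.8 in solvent pkl, against 6.9, 8.15 and 11.3 in treated and 6, 7.6 and 9.5 in solvent wild type. Its difference was 1.50 ± 0.30 (adjusted p = 0.0376). AT5G47130 had signals of 473, 583 and 603 in treated and 183, 244 and 333 in solvent pkl, against 148, 167 and 244 in treated and 122, 161 and 200.4 in solvent wild type, a difference of 1.03 ± 0.20 (adjusted p = 0.0293). For both, the wild-type change did not pass (adjusted p = 0.911 and 0.668).

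Among larger falls in pkl, AT2G43860 had a difference of -1.86 ± 0.36 (adjusted p = 0.0256), with wild-type signals of 296, 459 and 828 in treated and 505, 659.8 and 1026 in solvent seeds. Every wild-type array of AT2G43860 lay above every pkl array, and with an offset of 64 its difference was -0.84 (adjusted p = 0.411). AT5G62340 differed by -0.67 ± 0.14 (adjusted p = 0.044), with 931, 969.8 and 1157 in treated and 2084, 2661 and 2843 in solvent wild type. AT3G57070 had signals of 585, 719 and 913 in treated and 966, 1062 and 1236 in solvent pkl, a change of -0.55 ± 0.09 (adjusted p = 2.79e-05), against 609.8, 674 and 729 in treated and 543, 668 and 711 in solvent wild type. Its difference was -0.59 ± 0.12 (adjusted p = 0.044), and in the wild type its groups overlapped.

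**Figure D5:**
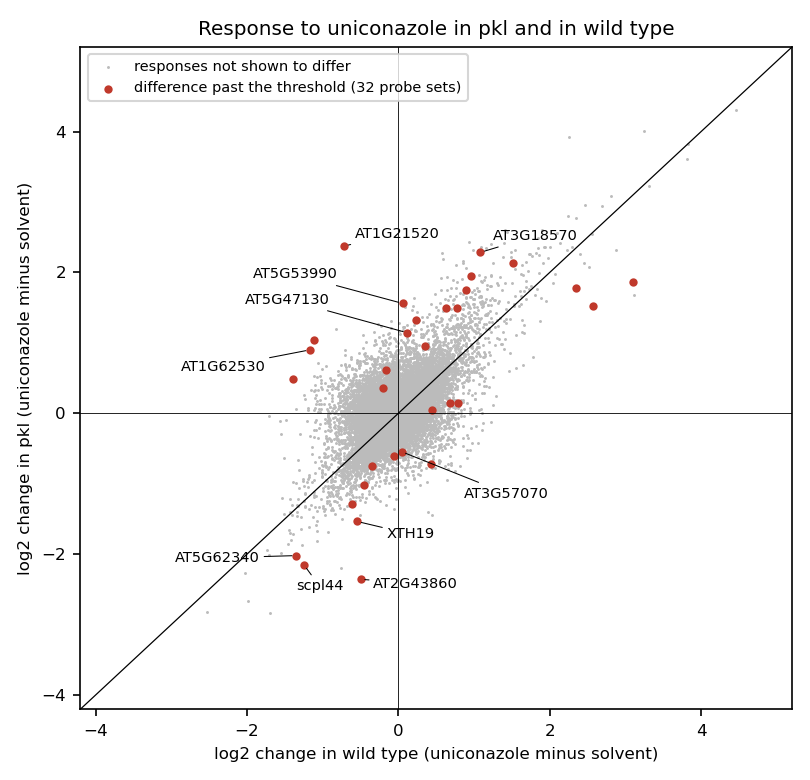
Log2 change with uniconazole in pkl (vertical axis) against that in wild type (horizontal axis) for 22746 probe sets, with the line of equal change. The 32 probe sets whose difference passed are red, and the 10 named genes among them are labelled, with AT1G21520 farthest above the line.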

How the data were processed

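Total RNA of whole germinating seeds was hybridized to 24 ATH1 arrays. The authors deposited one linear intensity per probe set, made with MAS5 per the submitters' processing notes, whose version is not given in the sources used here. A mean trimmed by 2% at both ends came to 1000.1 on each array, which shows that they had been scaled. The 64 control probe sets among 22810 were not tested. Gene names came from GEO's platform annotation and RefSeq TAIR10.1, which held 13436 of the 13513 probe sets with 1 gene; 503 matched several genes and 8730 were not listed. Where 152 genes had several probe sets, the brightest was used, and 0 had probe sets called in opposite directions. The files name no genome build, so no coordinates are given, and no sequences are shown.

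Arrays were grouped by their labels. All 24 entered 1 fit of log2(signal + 16) in limma 3.58.1 (lmFit, then eBayes with a trend, R 4.3.3, 20 residual degrees of freedom), which was tested on simulated data. The contrasts were uniconazole minus solvent in pkl and in wild type, and their difference, each two-sided with Benjamini-Hochberg adjustment. Array measures were compared by exact permutation. Replicate set numbers were checked for pairing: correlations of same-numbered pkl arrays' deviations ran from -0.12 to 0.07, 0 of 6 over 0.1, so they were not used as pairs. Named genes passed the threshold, had 1 annotated gene, a group mean above the bacterial control level and no overlap of the 6 and 6 arrays, and were the 12 highest and 12 lowest with a symbol and by locus code alone. The 5 highest and 5 lowest differences were named too, without the overlap criterion. Gene lists, matched by symbol, synonym or locus code, give examples; members whose symbol or synonym stood for another kind of gene in RefSeq were removed. The comparison, its named genes and the lists were chosen with earlier results of these data known, so lists are described by counts and medians, with no list test. Alternatives were offsets of 1 and 64, a filter at the bacterial control level, median and quantile scaling, pkl arrays alone, no trend, a replicate block, RNA integrity covariates and leaving out each pkl array. The covariate of older GAPDH, and the alternatives for lists and named differences, were added after seeing the data. A planned description of promoter motifs was not run.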

Additional observations from a re-analysis of the deposited data

Results flagged for a closer look

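In 6 of 122 groups of 6 arrays checked, 1 array stood apart from the other 5 by Dixon's criterion, which chance gives in about 1 in 20 groups. XERICO had a signal of 969.7 on the solvent pkl array of replicate 3, against 882.2 on the nearest other. EXLA2 had a signal of 92.6 on the treated pkl array of replicate 3, against 39.6 on the nearest other. AT2G28490 had a signal of 1234.3 on the solvent pkl array of replicate 4, against 1006.9 on the next. AT5G62280 had a signal of 32.5 on the treated pkl array of replicate 2, against 110.4 on the next. The ubiquitin log2 ratio of 3′ to 5′ was 0.56 on the treated pkl array of replicate 6, against 0.76 on the nearest other. The older actin ratio was 2.92 on the solvent pkl array of replicate 2, against 2.62 on the nearest other. The choice of the 4 genes required treated and solvent arrays not to overlap, so their separation is no check of these arrays. Dixon's criterion looks for 1 array and cannot show a pair that departs together. Treated pkl replicates 3 and 4 had 6460.4 and 7051.2 for AT2G28490, against 4276.9 to 5142.3 on the other treated arrays. For DRT100 they had 2048.7 and 2211.6, against 2974.1 to 3488.8. How many genes share this pattern was not counted.

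The change with uniconazole differed between pkl and wild type, by the interaction test in limma, for 10 named genes. It was higher in pkl by 3.09 for AT1G21520, 2.07 for AT1G62530, 1.50 for AT5G53990, 1.20 for AT3G18570 and 1.03 for AT5G47130. The difference was -1.86 for AT2G43860, -0.99 for XTH19, -0.91 for scpl44, -0.67 for AT5G62340 and -0.59 for AT3G57070, all on the log2 scale as pkl minus wild type.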

How the results depend on the processing

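The count of probe sets changed in pkl was 4999 and lay between 4450 and 5342 over the other offsets, filters, scalings, models and covariates, and between 4420 and 4825 when 1 pkl array was left out. Leaving out 1 array gave 2283 to 2505 higher, 2137 to 2320 lower, and 599 to 663 that moved by at least 1. Requiring a log2 change of at least 1 as well left 628, and with an offset of 64 this was 406, since the larger offset shrinks changes at low signal. With arrays brought to one median 35.5% of the calls were higher, against 51.9% as deposited, and with quantile normalization 46.7%; the median change of all probe sets was -0.04, 0.02 and -0.01 under these scalings. The labels do not say whether a set number marks a shared batch, and deviations of same-numbered pkl arrays did not go together; the replicate block gave 5342 calls in pkl, 4128 against 3755 in the wild type, and 33 against 32 for the difference. The 32 differences became 38 with an offset of 64, 36 with the filter on low signal and 27 with arrays brought to one median, and 15 to 38 when 1 pkl array was left out. All 48 named changes in pkl passed in the same direction under every alternative run for them. They had been chosen as large, called changes without overlap in these same data, so this says little about the other calls. Of the 10 named differences, AT1G21520, AT3G18570, XTH19 and scpl44 passed under all run, and the other 6 lost the call under at least 1, the cause of which was not tested. The number of arrays and the bacterial control level limit what dim probe sets can show.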

Other observations

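Counts in other gene families stand beside 16.4% higher and 12.5% lower among all genes with a symbol. Of 47 UGT glycosyltransferase genes, whose products attach sugars to small molecules, 11 rose, 2 fell and 34 did not pass in treated pkl seeds. UGT76E11 rose most of these 47, by 1.09 ± 0.14 (limma adjusted p = 7.21e-07), with signals of 634, 823 and 866 in treated and 296, 347 and 449 in solvent pkl. The list does not hold every glycosyltransferase gene: UF3GT, described above, is outside it and rose by 2.36. UGT74B1, an enzyme gene of glucosinolate synthesis, fell by 0.72 ± 0.07 (adjusted p = 1.1e-08), with 1911, 2308 and 2620.2 in treated and 3572, 3767 and 4332 in solvent pkl. Of 13 glutathione transferase genes 5 fell, 2 rose and 6 did not pass: GSTU25 fell by 0.67 ± 0.10 (adjusted p = 8.15e-06) and GSTL3 rose by 0.80 ± 0.15 (adjusted p = 0.000167). Of 20 beta-glucosidase genes 4 rose, 3 fell and 13 did not pass, shares of 20% and 15% that lie near those of all genes with a symbol. BGLU19 rose by 1.06 ± 0.22 in pkl (adjusted p = 0.000755) and changed by -0.13 in the wild type (adjusted p = 0.779), but the difference did not pass (adjusted p = 0.189).

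Of 13 defensin genes, which encode small antimicrobial peptides, 5 rose and 0 fell (6 higher and 1 lower at an unadjusted p under 0.05), with PDF1.4 at 279, 440.4 and 647 in treated and 120.1, 201 and 231 in solvent pkl. Of 14 markers of wounding, pathogens and senescence, 0 passed in either direction in limma, and 1 was lower at an unadjusted p under 0.05. With the ubiquitin ratio as a covariate 2 passed as higher, and with the older GAPDH ratio 1 passed as higher and 1 as lower. Among 11 transporter genes 5 rose and 0 fell (7 higher and 1 lower at an unadjusted p under 0.05), led by OCT1, an organic cation and carnitine transporter gene, at 0.85 ± 0.12 (adjusted p = 4.02e-06). Of 16 auxin genes 1 rose, 2 fell and 13 did not pass; GH3.17 and GH3.1, whose products join auxin to amino acids, changed by 0.66 ± 0.15 and -1.10 ± 0.33 (adjusted p = 0.00167 and 0.0159). Of 5 histone genes, HIS1-3 rose as described, the histone H2B gene HTB2 fell by 0.52 ± 0.08 (adjusted p = 1.58e-05), and 3 did not pass. PRXR1, a peroxidase gene, rose by 0.73 ± 0.07 (adjusted p = 9.5e-09), while PRX52 fell by 0.98 ± 0.21 (adjusted p = 0.000742).

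Of 36 transcription factor genes 6 rose (16.7%), 4 fell (11.1%) and 26 did not pass, again near the shares of all genes with a symbol; with arrays brought to one median the counts were 3 and 7. The 2 testa and endosperm markers, BAN and AGL62, stayed under the bacterial control level in both pkl groups, at 7, 8.8 and 15.4 and 4.1, 41 and 51.9 in treated and 4.3, 7.55 and 15.5 and 11.8, 40.1 and 47.7 in solvent pkl.

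Neighbouring genes were compared by their order in the RefSeq annotation TAIR10.1. Of 5193 pairs of adjacent measured genes, both members passed in 241 (4.64%), of which 79 rose together, 66 fell together and 96 went in opposite directions. Over all 13350 genes, 10.3% were higher and 8.88% lower. Whether adjacent genes passed together more often than other pairs of genes was not tested. Beside the pairs XTH18 with XTH19 and AT5G62330 with AT5G62340, AT1G54860 and AT1G54870 rose by 1.96 and 1.56, and AT3G54580 and the hydroxyproline-rich glycoprotein gene HRGP1 rose by 1.35 and 1.51. These examples were picked from the pairs that changed in the same direction. Adjacent genes can be sequence relatives, and shared probes between them were not tested.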
